A study of Rattus norvegicus with 3 samples.

Results

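The crude mitochondrial fraction of Rat1 fibroblasts, an established rat cell line, was compared between cells that carried Myc (Rat1/Myc) and cells that carried the empty vector (Rat1/vector). All 789 peptide lines deposited for this fraction were used and gathered into 207 protein entries, of the 1053 entries and 6783 lines in the whole series. A protein ratio was deposited for 201 of the 207 entries. The remaining 6 carried a code in place of a ratio and were set aside.

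Both Rat1/Myc and Rat1/vector cells had been kept without serum for 12 h. Cysteines of the Rat1/Myc protein were tagged with the heavy form and those of the Rat1/vector protein with the light form of the isotope-coded affinity tag (ICAT), a reagent that carries biotin, with 250 ug of protein per label against 2.5 mg in the soluble and chromatin-enriched fractions of the same series. The tagged proteins were combined and digested, and the tagged peptides were read by mass spectrometry, so each ratio is the abundance in Rat1/Myc over that in Rat1/vector. The labels do not say how Myc was introduced, at what level it was present, or whether each line was 1 clone, and 0 of the 201 quantified entries were named for Myc.

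Myc is a transcription factor that drives ribosome production, metabolism and growth, and cells with high Myc tend to die by apoptosis when serum is withdrawn. Mitochondria are central to that death, because proteins released through their outer membrane start the caspase cascade. A crude mitochondrial preparation is usually a pellet of heavy membranes, which holds lysosomes, endoplasmic reticulum, plasma membrane and ribosomes beside mitochondria. ICAT sees a protein only through peptides that contain cysteine, so proteins without a suitable one are not seen.

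A single mixture was measured and the tags were not swapped, so there is no replicate, and neither a test nor a p-value is given. A difference between the tags and a difference between the cells cannot be told apart. Each ± below is the SD deposited with a protein ratio, which describes measurements within the mixture. An entry was called higher in Rat1/Myc when its ratio was at least 1.5 and lay above 1 by more than 2 deposited errors on the log scale, with SD over ratio as the error, and called lower by the mirror rule. Fewer cells or organelles in the pellet and less protein per cell cannot be told apart in such a ratio.

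The median ratio of the 201 entries was 1.15, the middle of the distribution ran from 0.881 (percentile 25) to 1.39 (percentile 75), and 131 entries lay above 1 and 70 below. Since it is not known whether the ratios had been centred, calls were made on the deposited ratios and again on ratios divided by this median. As deposited, 22 entries (10.9%) were higher and 15 (7.46%) were lower in Rat1/Myc. Relative to the median, 14 entries (6.97%) were higher and 23 (11.4%) were lower. All 14 were among the 22, and all 15 entries that were lower as deposited were among the 23. By the fold of 1.5 alone, with neither error rule nor centring, 66 entries (32.8%) qualified, 43 (21.4%) above and 23 (11.4%) below.

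**Figure D1:**
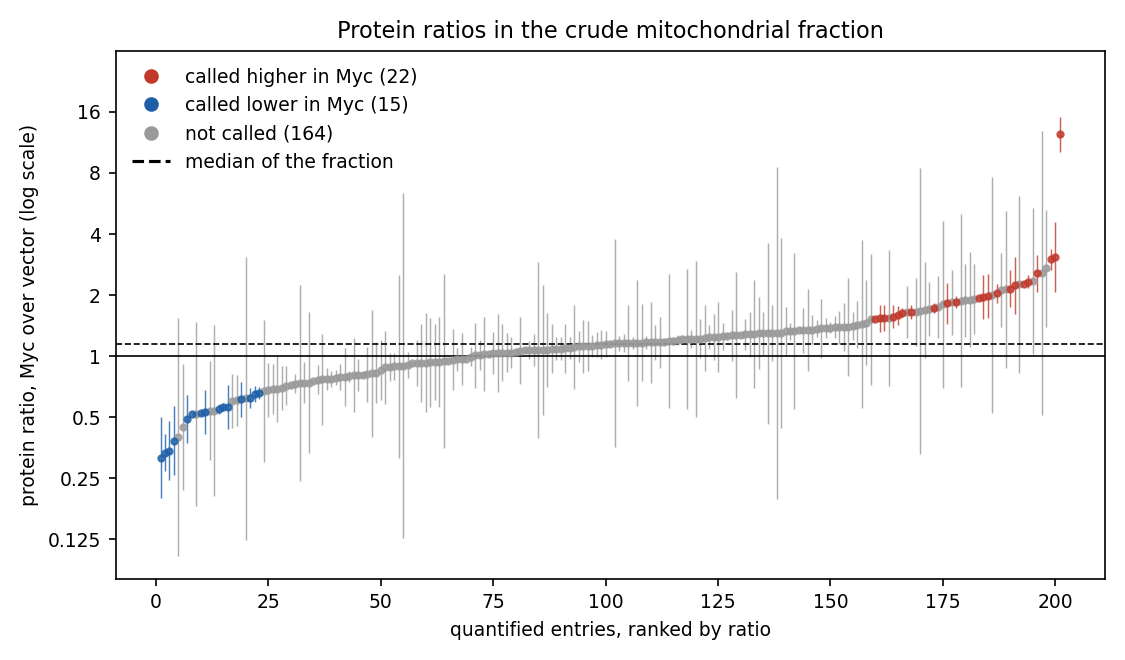
The 201 quantified entries are ranked on the horizontal axis by their protein ratio of Rat1/Myc over Rat1/vector, which is on a log scale on the vertical axis, and bars are the deposited SD taken as a factor. Calponin H2 stands alone at 12.4, the next ratio is 3.09 and the lowest is 0.316, while long bars cross 1 among the grey entries that were not called.

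The evidence behind the 2 directions differed. Of the 22 higher entries, 12 rested on at least 2 deposited peptides, while each of the 15 lower entries rested on 1. Among the 67 entries with at least 2 peptides the lowest ratio was 0.673, so none could be called lower. Past the fold of 1.5 but within 2 errors of 1 were 21 more entries above and 8 below, among them subunit 4 of initiation factor 3 (IF34_MOUSE, 2.57 ± 4.14), the actin-branching protein Arp3 (BC005557_1, 2.71 ± 1.80) and the signal transducer STAT3 (STA3_MOUSE, 0.401 ± 0.541). The median SD was 26.1% of the ratio.

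Members of the 3 mitochondrial lists (respiratory chain, matrix, and carriers and channels) were few in this fraction. They made up 8 of the 207 entries, or 3.86% (exact 95% binomial interval 1.68% to 7.47%, counting error only). In the soluble fraction they were 23 of 620 entries (3.71%, interval 2.37% to 5.51%) and in the chromatin-enriched fraction 24 of 400 (6.00%, interval 3.88% to 8.80%). By peptide lines the lists held 4.06% of the mitochondrial, 6.65% of the soluble and 11.2% of the chromatin lines. The entries thus do not set this fraction apart by mitochondrial content. Names could be read for 175 of 207, 413 of 620 and 266 of 400 entries in the 3 fractions, so the shares depend on naming.

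Larger groups in the pellet were the cytosolic ribosomal proteins, with 21 of 207 entries (10.1%), and vesicle traffic proteins and small GTPases, with 19 (9.18%). Actin cytoskeleton proteins and cytosolic chaperones had 16 entries each (7.73%). The apoptosis list and the list of keratins and serum proteins had 0 of 207 entries each, which allows up to 1.77% (exact 95% limit). Cytochrome c is on the respiratory chain list, whose only entry here was the hinge protein of respiratory complex III. The Bcl-2 family is on the apoptosis list. Neither was among the entries that could be read.

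Among the mitochondrial members, both channel proteins rose. Chloride intracellular channel 4, which is found in mitochondria and in other membranes, rose to 2.56 ± 0.544 (AF102578_1), and 4 of its 5 lines had been seen with the light tag. In the soluble fraction an entry with an identical peptide stood at 0.993 ± 0.564 (CLI4_MOUSE). VDAC1, the main pore of the mitochondrial outer membrane for ions and metabolites, rose to 1.96 ± 0.495 (POR1_MOUSE) on 1 peptide. Its 5 lines held 3 distinct values between 1.49 and 2.41, all above 1. Their median was 1.55, below the protein ratio. By their protein ratios, both channel proteins were still called higher after centring. Whether VDAC1 would be called at its line median was not tested. In the chromatin-enriched fraction the mouse entry of VDAC1 stood at 1.56 ± 0.097 and the human entry at 1.17 ± 1.61.

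The 5 entries of the matrix list had a median ratio of 1.08, close to that of all entries. Of these 5, 1 was higher, beside 10.9% of all entries. That one was dihydrolipoamide dehydrogenase, the shared subunit of the pyruvate and 2-oxoglutarate dehydrogenase complexes, at 1.54 ± 0.231 (DLDH_MOUSE) on 1 line, and it was not called relative to the median. Hsp60, the chaperonin that folds imported matrix proteins, stood at 1.88 ± 0.780 (CH60_MOUSE) on 4 peptides and was not called, since its SD is wide. Its 14 lines ran from 0.988 to 2.76, with 13 of them seen with the heavy tag. In the soluble fraction its entries stood at 2.60 ± 0.179 and 2.57 ± 0.308, and in the chromatin-enriched fraction at 0.750 ± 0.189.

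The other mitochondrial members lay near 1 with wide errors. Malate dehydrogenase of the citric acid cycle stood at 1.08 ± 0.795 (MDHM_MOUSE), with 3 lines from 0.226 to 1.22, against 2.37 ± 0.474 in the soluble fraction. Mitochondrial aconitase, another enzyme of that cycle, stood at 0.946 ± 0.937 (BC004645_1), and mitochondrial serine hydroxymethyltransferase, which feeds the folate pathway, at 0.770 ± 0.399 (AK012355_1). The hinge protein of respiratory complex III, the one respiratory chain member seen, stood at 1.12 ± 0.320 (UCRH_MOUSE). The matrix-located protein p32, which was on none of the lists, stood at 1.38 ± 0.157 (MA32_MOUSE), with lines at 1.27 and 1.45 and another line that was coded, all seen with the heavy tag.

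**Figure D2:**
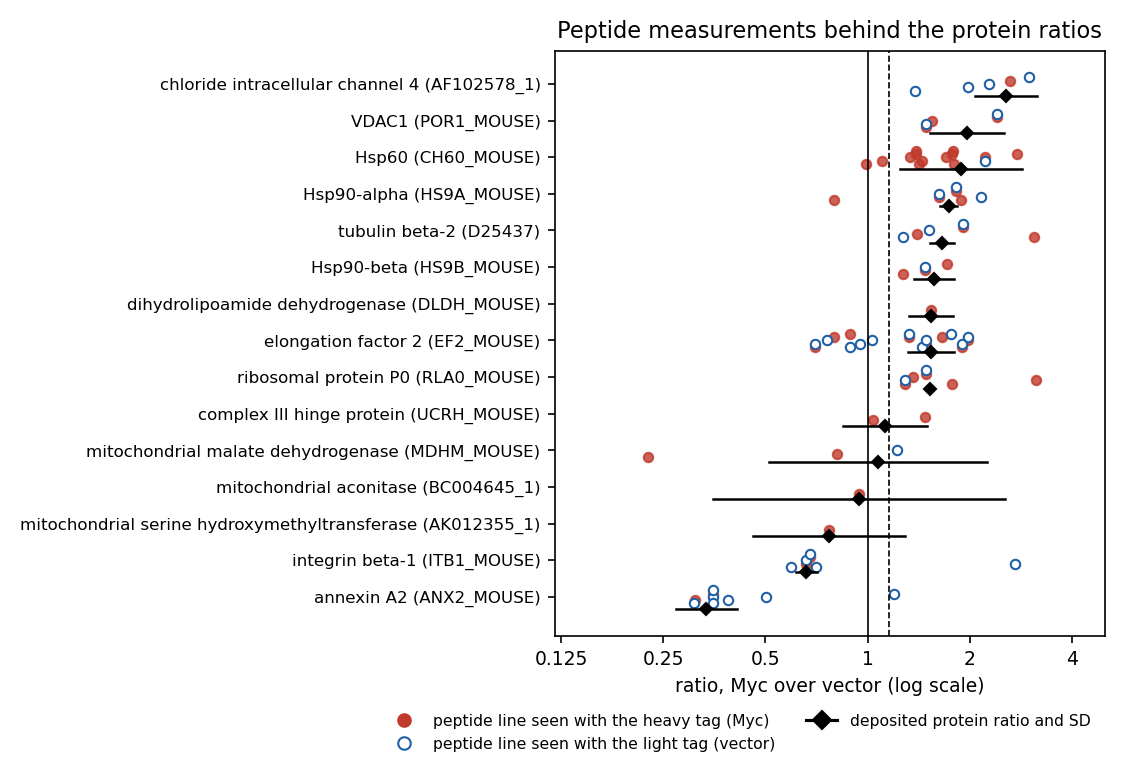
Each row is 1 entry of the mitochondrial lists or a called entry with at least 5 lines, and the horizontal axis is the ratio of Rat1/Myc over Rat1/vector on a log scale. Filled circles are lines identified with the heavy (Rat1/Myc) tag, open circles those with the light (Rat1/vector) tag, diamonds with bars the deposited protein ratio and SD, and the dashed line is the median of the fraction at 1.15. Annexin A2 has 9 lines from 0.307 to 1.198, and the 5 lines of VDAC1 all lie above 1.

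Several small GTPases, the switch proteins of signalling, actin assembly and vesicle traffic, were called. H-Ras fell to 0.342 ± 0.114 (RASH_MOUSE), the brain form of Cdc42, which builds filopodia, to 0.518 ± 0.005 (G25B_HUMAN), and Rab1A, which serves transport from endoplasmic reticulum to Golgi, to 0.563 ± 0.141 (RB1A_HUMAN). Each rested on a single line seen with the light tag.

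Others were not called. Rac1, the GTPase of lamellipodia, stood at 0.692 ± 0.260 (RAC1_HUMAN) and the placental form of Cdc42 at 0.771 ± 0.096 (G25P_HUMAN). K-Ras stood at 1.02 ± 0.426 (RASK_MOUSE), with an SD that spans both sides of 1. H-Ras and K-Ras are nearly the same over most of their sequence, so their assignment is uncertain.

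In the soluble fraction the brain form of Cdc42 was at 1.54 ± 0.404, the placental form at 1.29 ± 0.059 and Rac1 at 1.19 ± 0.183. The fractions are 1 mixture each, with medians of their own, so these values stand side by side without a test.

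Heterotrimeric G protein subunits, which sit at the inner face of the plasma membrane and relay receptor signals, all lay below the median of the fraction. The 5 entries, grouped after the values were seen, ran from 0.810 to 1.14. Of the 5, 0 were called, beside 18.4% of all entries. The best covered were the beta-2 subunit, at 0.810 ± 0.027 over 16 lines (GBB2_MOUSE), and the beta-1 subunit, at 0.968 ± 0.283 over 13 lines (GBB1_HUMAN). The lines of beta-2 ran from 0.310 to 1.52, far wider than its SD.

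The whole list of vesicle traffic proteins and small GTPases, which holds both groups, had 18 quantified entries with a median of 0.913. Of the 18, 3 were lower and 1 higher, beside 7.46% and 10.9% of all entries. The higher one was the histone-binding protein RBBP7 (RBB7_MOUSE), which fell in the list by part of its name and is a nuclear protein. Without it and without RanBP1 (RANG_MOUSE), also misplaced, the median was 0.856 with 3 of 16 lower and 0 higher. Its highest remaining member was the scaffold RACK1 at 1.67 ± 2.71 (GBLP_HUMAN).

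Matrix and surface proteins lay low as well. Of 9 quantified entries 0 lay above the median of the fraction, and the list median was 0.698. As deposited 4 were lower and relative to the median 5, beside 7.46% and 11.4% of all entries. Each of the 4 rested on 1 peptide. With at least 2 peptides required, 2 entries of the list remained, at a median of -0.03 on the log2 scale. The lowest was SPARC, a secreted protein that binds collagen, at 0.384 ± 0.149 (SPRC_MOUSE), and the highest was the collagen cross-linking enzyme lysyl oxidase at 1.09 ± 0.136 (LYOX_MOUSE). Galectin-1, a sugar-binding lectin, stood at 0.533 ± 0.132 (LEG1_MOUSE), the basement membrane chain laminin gamma-1 at 0.651 ± 0.057 (LMG1_MOUSE), and fibronectin, lower relative to the median alone, at 0.698 ± 0.175 (FINC_MOUSE).

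The integrins, the receptors that hold cells to this matrix, were measured with unequal precision. Integrin beta-1 fell to 0.660 ± 0.046 (ITB1_MOUSE), with 6 of its 7 lines below 1, a median line of 0.675 and one line at 2.73. Integrin beta-5 stood at 0.929 ± 0.522 (ITB5_MOUSE) and integrin alpha-V, on 3 peptides, at 1.07 ± 0.403 (ITAV_MOUSE). Neural cell adhesion molecule 1, on 4 peptides, stood at 0.90 ± 1.76 (NCA1_MOUSE), and 9 of its 10 lines were seen with the light tag.

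Some other plasma membrane proteins, on none of the lists, were called, and were brought together here after their values were seen. Further receptors on none of the lists were not called, such as EphA2 at 0.994 ± 0.108 and frizzled 2 at 0.814 ± 0.256. These are given among the other observations. The prion protein, which is anchored to the outer face of the membrane by a lipid, fell to 0.612 ± 0.120 (PRIO_MOUSE), with 3 lines from 0.537 to 0.892, and stood at 1.01 ± 0.068 in the chromatin-enriched fraction. The beta-1 chain of the sodium pump, which guides the pump to the surface, fell to 0.622 ± 0.073 (ATNB_MOUSE). A pump alpha chain, deposited as alpha-4 but sharing a peptide with an alpha-1 entry, was lower relative to the median alone at 0.766 ± 0.126 on 3 peptides (A1A4_MOUSE), while a second alpha entry stood at 1.07 ± 1.07 (BC025618_1). The urokinase receptor, which focuses proteolysis at the cell surface, stood at 0.602 ± 0.183 (UPAR_MOUSE) and was lower only relative to the median.

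A called surface protein went the other way. Embigin, a partner of lactate transporters, rose to 2.15 ± 0.456 (EMB_MOUSE) on 1 line. CD166, an adhesion molecule, stood at 1.80 ± 1.71 (C166_MOUSE) and was not called.

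Annexin A2 and S100A11, calcium-dependent proteins at membranes, made up the annexin and S100 list here and were both lower. Annexin A2 fell to 0.335 ± 0.069 (ANX2_MOUSE) on 1 peptide with 9 lines, whose median was 0.351, and 7 of the 9 had been seen with the light tag. One line stood apart at 1.198. An identical peptide was measured in the chromatin-enriched fraction, where the ratio was 1.06 ± 0.124. S100A11 fell to 0.316 ± 0.146 (S111_MOUSE), the lowest ratio of the fraction, on a single line seen with the heavy tag.

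Ribosomal proteins sat slightly above the median of the fraction. Of 20 quantified entries, 19 lay above 1 and 15 above the fraction median, with a median of 1.27. Of the 20, 2 were higher and 0 lower, a share near the 10.9% of all entries that were higher. The 2 were L12, at 1.95 ± 0.017 (RL12_MOUSE), and the stalk protein P0, which docks elongation factors, at 1.53 ± 0.012 (RLA0_MOUSE), and P0 was not called relative to the median. Their 4 and 7 lines ran from 1.49 to 2.07 and from 1.29 to 3.13. L10, the best covered with 25 lines, stood at 1.46 ± 0.703 (RL10_MOUSE) and was not called. Its lines ran from 1.002 to 6.69 with a median of 1.85, above the protein ratio. The lowest entry was S8 at 0.518 ± 0.540 (RS8_HUMAN).

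Large and small subunit proteins lay in overlapping ranges, a split made after the values were seen. The 10 large subunit entries ran from 1.04 to 1.95 with a median of 1.28, and the 10 small subunit entries from 0.518 to 1.90 with a median of 1.26.

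The median of the 10 translation factors and tRNA synthetases was 1.30. Of the 10, 2 rose and 0 fell, beside 10.9% higher and 7.46% lower among all entries. The start-site factor SUI1, which helps the ribosome pick the start codon, rose to 1.97 ± 0.492 (SUI1_MOUSE), although its 2 peptides gave 0.973 on 1 line and a median of 2.01 on 2 lines. Elongation factor 2, which moves the ribosome along the message, rose to 1.54 ± 0.238 (EF2_MOUSE) on 8 deposited peptides, and was not called relative to the median. Its 19 lines ran from 0.699 to 1.98 with a median of 1.33, and 7 of them lay below 1. Elongation factor 1-alpha 1, which brings tRNA to the ribosome, stood at 1.09 ± 0.306 (EF11_MOUSE), with a ratio on 21 of its 24 lines. The list ran from asparaginyl-tRNA synthetase at 0.924 ± 0.239 (AK013880_1) to the initiation factor 3 subunit given above.

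By their protein ratios, the 5 entries on the list of endoplasmic reticulum folding and processing proteins all lay above the median of the fraction. They ran from 1.25 to 1.82 with a median of 1.65. Of the 5, 1 was higher, beside 10.9% of all entries, and 0 were called relative to the median. The higher entry was the ribosome-binding protein 1 of the rough endoplasmic reticulum, at 1.82 ± 0.430 (AK019964_1). Endoplasmin, the Hsp90 of this compartment, stood at 1.65 ± 0.491 (ENPL_MOUSE), although its 11 lines ran from 0.466 to 2.60 with a median of 1.02, below that of the fraction. With each entry at the median of its lines, the list median was 0.43 on the log2 scale, against 0.72 by the protein ratios. Calreticulin, a calcium-binding chaperone, was the lowest of the list at 1.25 ± 0.193 (CRTC_MOUSE). ARMET, which the list did not take in, stood at 0.921 ± 0.018 (AK014338_1), below the median of the fraction. In the soluble fraction endoplasmin stood at 0.916 ± 0.256.

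Among 16 cytosolic chaperones 3 rose and 0 fell, beside 10.9% higher and 7.46% lower among all entries. Cyclophilin A, a prolyl isomerase, rose to 2.04 ± 0.211 (CYPH_MOUSE), with 2.01 and 2.10 on one peptide and 1.21 on the other. Hsp90-alpha rose to 1.73 ± 0.100 (HS9A_MOUSE), with 7 lines from 0.796 to 2.16, and Hsp90-beta rose to 1.57 ± 0.213 (HS9B_MOUSE) but was not called relative to the median. Hsc70, the constitutive Hsp70, was lower relative to the median alone at 0.717 ± 0.157 (HS7C_MOUSE), and the lowest member was FK506-binding protein 1A at 0.683 ± 0.209 (FKB1_MOUSE).

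The TCP-1 ring, the chaperonin that folds actin and tubulin, had 7 subunits measured and 0 called, beside 18.4% of all entries. This group was drawn from the chaperone list after the values were seen. The 7 ratios ran from 1.01 to 1.55 with a median of 1.17. The gamma subunit, among the best covered with 11 lines that held a ratio, stood at 1.01 ± 0.375 (TCPG_MOUSE), against 2.72 ± 0.772 in the soluble fraction.

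Tubulins, the building blocks of microtubules, lay together above the median, a group drawn from a list of 12 after the values were seen. That whole list had a median of 1.28, with 8 entries above 1 and 4 below. The 7 tubulin entries ran from 1.28 to 1.66, all 7 above the fraction median. As deposited 2 were higher and relative to the median 0, beside 10.9% and 6.97% of all entries. The 2 were beta-2 tubulin at 1.66 ± 0.137 (D25437) and an alpha tubulin that the search had assigned to a plant entry at 1.64 ± 0.083 (TBA1_ARATH). Tubulin peptides are shared widely among isotypes and species, so these entries are uncertain as single genes. Alpha-1 tubulin, with 22 lines, stood at 1.43 ± 0.383 (TBA1_MOUSE), and vimentin, the intermediate filament of fibroblasts and the lowest member of its list of 12, at 0.539 ± 0.524 (VIME_MOUSE).

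The median of the 16 actin cytoskeleton proteins was 1.03. Of the 16, 1 rose and 1 fell, beside 10.9% higher and 7.46% lower among all entries. Calponin H2, which binds and steadies actin filaments, had the highest ratio of the fraction at 12.4 ± 2.43 (CLP2_MOUSE), but on 2 lines that disagreed. The line of identification probability 0.998 gave 2.36 ± 2.84 and the line of probability 0.570 gave 12.6 ± 4.55. In the soluble fraction calponin H2 stood at 1.01 ± 0.137 on 4 peptides. An entry deposited as skeletal muscle actin fell to 0.488 ± 0.133 (ACTS_HUMAN). It rested on 1 line of probability 0.713, so its assignment to that form is uncertain. Myosin Ic, the lowest of the list, stood at 0.447 ± 0.318 (MY1C_MOUSE).

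The abundant actins were not called. Beta actin, the best covered protein of the fraction with 77 lines, 39 of them seen with the heavy tag, stood at 1.39 ± 0.176 (ACTB_HUMAN). The 75 lines with a ratio ran from 0.336 to 5.86 with a median of 1.18. The aortic form stood at 1.01 ± 0.168 over 15 lines (ACTA_HUMAN) and the non-muscle myosin light chain at 0.974 ± 0.005 (MLEN_MOUSE), with a ratio on 8 of its 13 lines. Of the alpha-actinins, which cross-link filaments, the entry of form 4 stood at 1.09 ± 0.302 on 2 peptides (AAC4_MOUSE) and was not called. An entry deposited as form 2, on 1 peptide, was lower relative to the median alone at 0.758 ± 0.005 (AAC2_MOUSE). It shares that peptide with a form 1 entry of the soluble fraction (AAC1_HUMAN), so its form is uncertain.

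Metabolic enzymes of the cytosol were carried in the pellet as well. Phosphoglycerate dehydrogenase, which opens the pathway to serine, rose to 3.00 ± 0.365 (SERA_MOUSE) on 2 peptides, with lines at 2.96 and 3.96 that were both seen with the heavy tag, against 1.52 ± 0.493 in the soluble fraction and 2.76 ± 3.96 in the chromatin-enriched fraction. The 6 glycolysis entries lay between 1.03 and 1.91 with a median of 1.53 and 0 were called, beside 18.4% of all entries. The lowest was aldolase A at 1.03 ± 0.249 (ALFA_MOUSE) and the highest alpha enolase at 1.91 ± 0.764 (ENOA_MOUSE).

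Among nuclear and RNA proteins, which were brought together here from different lists after their values were seen, RBBP7, a histone-binding subunit of chromatin complexes, rose to 2.33 ± 0.178 (RBB7_MOUSE) with 3 lines from 2.11 to 2.37, and stood at 2.34 ± 0.367 in the chromatin-enriched fraction and 1.49 ± 0.302 in the soluble fraction. The RNA helicase UAP56, which acts in splicing and mRNA export, rose to 3.09 ± 1.23 (AC007080_3) on 1 line. It stood at 1.45 ± 0.083 in the chromatin-enriched fraction and at 0.584 ± 0.471 in the soluble fraction. CSE1, which returns importin alpha to the cytosol, rose to 2.23 ± 0.718 (CSE1_MOUSE).

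Of 6 entries in the list of RNA-binding and chromatin proteins UAP56 alone was higher, beside 10.9% of all entries. The list median was 1.30. The lowest entry, Hsp105 at 0.789 ± 0.257 (H105_MOUSE), is a chaperone that was caught by part of its name, and without it the median was 1.37. Its next lowest member was the helicase DDX3 at 1.203 ± 0.073 (DDX3_MOUSE).

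Proteasome and ubiquitin proteins had 1 of 5 entries higher, beside 10.9% of all entries. It was the core subunit alpha-3 at 1.59 ± 0.175 (PSA3_MOUSE), which was not called relative to the median. The list ran from a subunit of the regulatory particle at 0.620 ± 0.993 (AK010596_1) to the segregase valosin-containing protein at 2.00 ± 2.67 (TERA_MOUSE). The 3 quantified lysosomal entries had 0 calls, beside 18.4% of all entries, and all lay below the median of the fraction. They were the protective protein at 0.774 ± 0.072 (PRTP_MOUSE), prosaposin at 0.796 ± 0.052 (SAP_MOUSE) and cathepsin B, a protease, at 1.07 ± 0.036 over 10 lines (CATB_MOUSE).

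**Figure D3:**
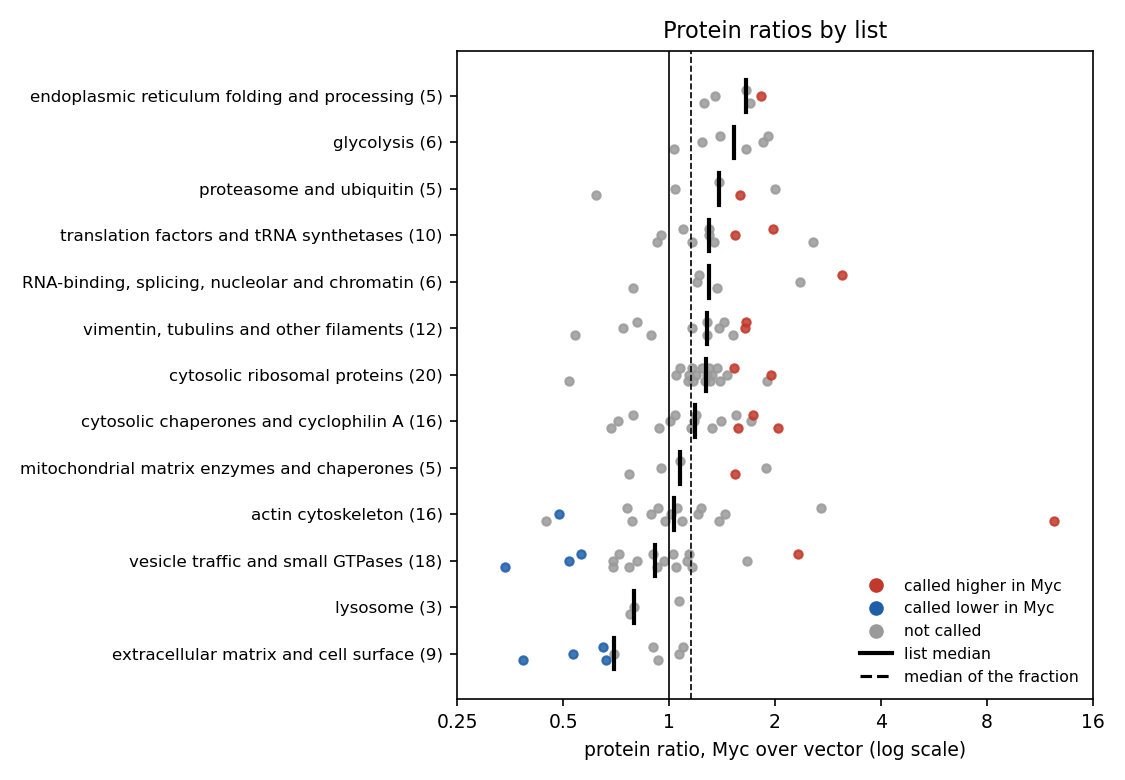
Rows are the lists with at least 3 quantified entries, with that number in brackets, ordered by their median, and the horizontal axis is the ratio of Rat1/Myc over Rat1/vector on a log scale. Points are entries, short bars the list medians and the dashed line the median of the fraction at 1.15. The 9 matrix and surface entries all lie left of the dashed line, at a median of 0.698, and the 5 endoplasmic reticulum entries all lie right of it, at a median of 1.65.

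Of the called entries, 5 could not be named from the files. Higher were AF353717_1 at 2.28 ± 0.016 and BC003288_1 at 1.85 ± 0.121, both also relative to the median. Lower were AK006449_1 at 0.526 ± 0.012, AK013776_1 at 0.551 ± 0.030 and BC025649_1 at 0.562 ± 0.023. A further unnamed entry, BC003984_1 at 0.606 ± 0.175, and the antioxidant enzyme peroxiredoxin 1 at 0.732 ± 0.079 (PDX1_MOUSE) were lower relative to the median alone. Another unnamed entry, BC025037_1, was among the best covered with 13 lines and stood at 1.34 ± 0.005.

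The form of the tag on the identified peptide gave a second view of the same spectra, one that is not independent of the ratios. Of 783 lines of quantified entries, 364 (46.5%) had been identified through the heavy, Rat1/Myc form and 419 through the light, Rat1/vector form. The heavy form accounted for 47 of 84 lines in entries called higher, 310 of 664 lines in those not called and 7 of 35 lines in those called lower. Of the 15 lower entries 10 were seen only with the light tag and 1 only with the heavy tag, and of the 22 higher entries 0 were seen only with the light tag and 8 only with the heavy tag.

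Across entries, which are not replicates, the heavy share of an entry's lines and its ratio had a Spearman correlation of 0.34 over all 201 entries. It was 0.37 over the 79 entries with at least 3 lines and 0.47 over the 44 with at least 5. Hsp60 had 13 of 14 lines seen with the heavy tag, while chloride intracellular channel 4, with a higher ratio, had 1 of 5.

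**Figure D4:**
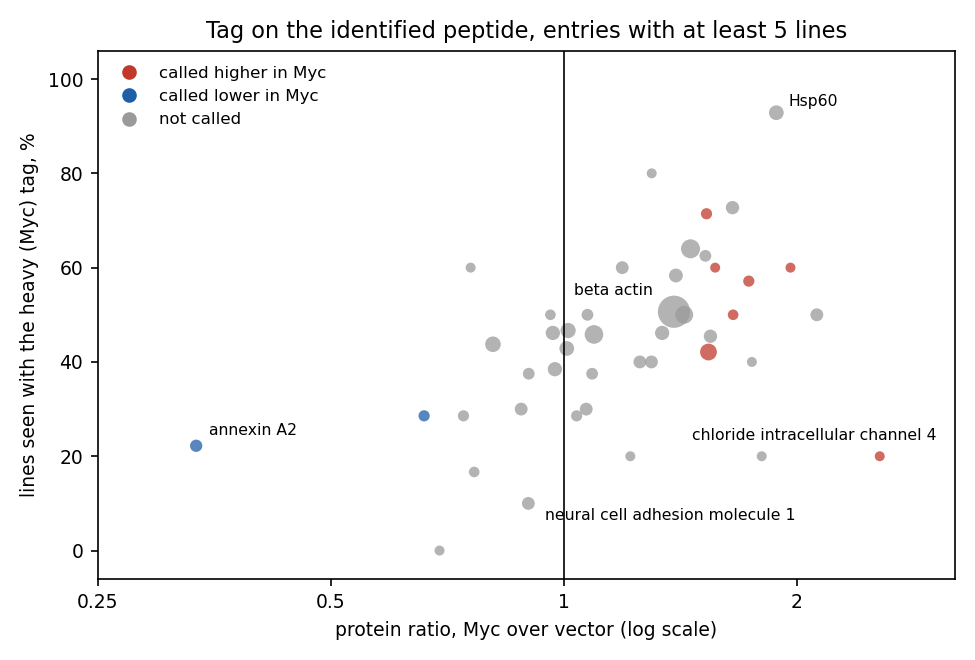
Each point is 1 of the 44 entries with at least 5 lines, with its ratio of Rat1/Myc over Rat1/vector on the horizontal log axis and the percentage of its lines identified with the heavy (Rat1/Myc) tag on the vertical axis. A larger point has more lines. Annexin A2 has 2 of its 9 lines and Hsp60 has 13 of its 14 lines with the heavy tag.

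Repeat lines show how finely an entry was measured. The 756 lines with a ratio held 635 distinct values within their entries, since lines that share a peptide often repeat 1 ratio, so lines are not independent. Of 113 entries with at least 2 such lines, 66 had all of them on the same side of 1, and the highest line was at the median 1.67 times the lowest. Of the 17 higher entries with at least 2 lines, 14 had all lines above 1, and of the 7 such lower entries 5 had all lines below 1.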

How the data were processed

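Per the labels' protocols, the authors searched tandem mass spectra against the NCBI rat, mouse and human protein database, scored identifications with PeptideProphet and ProteinProphet and computed peptide and protein ratios with ASAPRatio. Tool versions and any centring of the ratios are not given in the sources used here. The deposited table of the fraction has 1 line per peptide with a probability, an entry name, the peptide, and in a single text cell the ratio of Rat1/Myc over Rat1/vector and its SD at the peptide and at the protein level. The number of peptides is in that cell too. Ratios of 0, 9999 and -1 are codes for peaks that were not detected and were left out (6 entries, 33 lines). In 24 entries the deposited number of peptides exceeds the number of distinct sequences, and by distinct sequences 10 of the 22 higher entries and 0 of the 15 lower entries rest on at least 2.

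Depth was 789 lines. From these files the ratios were counted, ranked and summarised with pandas 2.3.3, numpy 2.4.6, scipy 1.17.1 and matplotlib 3.10.9 under Python 3.11.15, as deposited and after subtracting the median log2 ratio of 0.21. The calling code was tested on simulated data.

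The plan to match peptides to a protein table could not be carried out, so entry names were read from general knowledge. Of 207 entries 147 had a Swiss-Prot name, 28 took one from an identical peptide in another entry of the series and 32 stayed unnamed. Of the Swiss-Prot names 125 were of mouse, 19 of human and 3 of Arabidopsis. Of 166 gene symbols read, 166 are in the RefSeq gene table of the rat assembly GRCr8. No protein sequence is printed. Called entries, entries lower relative to the median on at least 2 peptides, members of the mitochondrial lists, the 10 entries with the most lines (with ties) and the ends of each list with at least 3 entries are named by rule, and other examples were picked with their values in view. The fraction's members and its 21 lists were chosen with earlier results of these data known. Name patterns misplaced 6 entries across the series, and those met here are named where they matter. A few entries that the naming rule covers are not reported here.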

Additional observations from a re-analysis of the deposited data

How the results depend on the processing

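Of 36 alternatives to the counts of calls 24 stayed within 1.5 times the count given. Of the list medians, 3 changed side of 1: the lysosome list as given below, and, with the median of the peptide lines in place of the protein ratio, the matrix enzymes at -0.08 and the actin list at -0.01 (log2). Their causes were not tested. With a fold of 2, 9 entries were higher and 5 lower as deposited, and 5 higher and 11 lower relative to the median. By the fold alone, without the error rule, the counts were 43 and 23 as deposited and 29 and 36 relative to the median. With at least 2 peptides they were 12 and 0 as deposited and 6 and 3 relative to the median. These numbers follow from the construction of each rule. Of 53 alternatives to the list medians, 3 moved. With at least 2 peptides the matrix and surface list stood at a log2 median of -0.03 and the lysosome list at 0.10, and with a probability of at least 0.9 the lysosome list stood at -0.12. Requiring an SD of at least 5% of the ratio, chosen after seeing the data because 22 entries lie under it, left 19 higher and 12 lower. Requiring every line on the called side, also chosen after seeing the data, left 19 and 13. No paired analysis was possible because the fraction is 1 labelled mixture with no replicate. Whether the amount of protein, 250 ug per label, bears on the precision was not tested. The 134 entries that rest on 1 peptide have no other peptide to check them, and the number of ions behind a ratio is not known.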

Other observations

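Among the 6 entries without a ratio were collagen alpha-1(I), ribosomal protein L13a and an unnamed entry (U39078_1) with one code, and the lysosomal protease cathepsin D and an unnamed entry (BC027346_1) with another. Each rested on 1 line, and the files do not say which code stands for which missing form, so no direction was read from them.

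Of the receptors of the surface and the sorting pathway that were on none of the lists, 5 were called neither as deposited nor relative to the median. They were the Wnt receptor frizzled 2 at 0.814 ± 0.256 (FZD2_MOUSE), the endocytic receptor LRP1 at 0.881 ± 0.366 (S25111), with a ratio on 8 of its 10 lines, the ephrin receptor EphA2 at 0.994 ± 0.108 (EPA2_MOUSE), and the mannose 6-phosphate receptors, the cation-independent one at 1.03 ± 0.008 (MPRI_MOUSE) and the cation-dependent one at 1.11 ± 0.532 (MPRD_MOUSE).

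The deposited SD does not always cover the lines behind it. The beta-2 subunit of G proteins has an SD of 0.027 with lines from 0.310 to 1.52, and the non-muscle myosin light chain an SD of 0.005 with lines from 0.350 to 1.25.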
